A study of Mus musculus with 1111 samples.

Results

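The genes described here are those of the MHC class II pathway that present peptides to helper T cells: Cd74, H2-Aa, H2-Ab1, H2-Eb1, H2-DMa, H2-DMb1 and Ciita. They were chosen by name, though with earlier results of these data known, and all 7 were found among the 35583 genes of the deposited count tables. Of these 35583 genes, 18001 had a read in a cell that passed the depth filter. The cells were microglia, the resident macrophages of the brain, taken from mice aged 3 months. Every mouse had received plasma proteins tagged with the fluorescent dye NHS-Atto647N 20 hours before the cells were isolated, so the cells without plasma signal came from injected mice too. Cells were sorted by the plasma signal inside them into plasma none, plasma low and plasma high, and each was sequenced as its own library by Smart-seq2, a plate-based method that reads whole transcripts. No strain, sex, genotype or animal is named in the labels used here, so a group was treated as 1 sample of cells, and the groups are compared without tests or p-values. Labels also carry a TH number of 1, 2 or 3, whose meaning is not stated. The 3 TH numbers were used as 3 sets of wells, and each error is an SD over them (n = 3), which is no spread between animals.

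Class II molecules are heterodimers of an alpha and a beta chain, in mouse I-A (H2-Aa and H2-Ab1) and I-E (whose beta chain is H2-Eb1). Cd74, the invariant chain, fills the groove of the new dimer and guides it to endosomes, where cathepsins trim it to a short stub and the editor H2-DM, made of H2-DMa and a DMb chain, exchanges that stub for peptide. Ciita is the master coactivator of this gene set, and interferon gamma is its classical inducer. Microglia of the healthy adult brain are known for low class II, which rises in inflammation and in some disease states.

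After a filter (a cell needed 50000 reads in genes, and 500 genes detected) 987 cells remained, of which plasma none made up 35.1%, plasma low 35.6% and plasma high 29.4%. Summed per group and TH number, they held between 21309816 and 49323522 reads. The median depth of a cell was 207429, 229931 and 267143 reads in plasma none, low and high, so shares of cells with a read are also given with every cell thinned to 50000 reads. On each TH number the groups filled separate plate columns (1 to 8, 9 to 16 and 17 to 23), so group and plate position cannot be told apart. The 8 microglia markers together had between 45387 and 54371 CPM (reads in genes scaled to a common depth) in these sums, with overlapping ranges in the 3 groups.

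Most of the genes lie in the MHC region of chromosome 17 (coordinates of the tables, mm10, identical to those of GENCODE M21 on GRCm38). H2-DMa (ENSMUSG00000037649) spans 34119541 to 34139101, H2-DMb1 (ENSMUSG00000079547) 34153072 to 34160230 and H2-Ab1 (ENSMUSG00000073421) 34257689 to 34269419, all on the plus strand of chromosome 17. H2-Aa (ENSMUSG00000036594) follows on the minus strand at 34282744 to 34287823, and H2-Eb1 (ENSMUSG00000060586) on the plus strand at 34305867 to 34316674. Ciita (ENSMUSG00000022504) lies on the plus strand of chromosome 16 at 10480059 to 10528418.

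The promoters of class II genes share short boxes that the RFX and NF-Y factors are known to bind. The 100 bases just before the start are shown for H2-Aa, H2-Eb1 and H2-DMb1, 2 presenting chains read in 1 and 3 cells and an editor chain read in 37.9% of cells, from RefSeq's promoters on GRCm38.p6. Capitals mark matches to 3 motifs that were chosen after reading these sequences: TGATTGG (the inverted CCAAT of the Y box), TGATGATG and TGACGTCA (both from the region of the X box). H2-Aa is read from the minus strand of chr17:34287824-34287923, H2-Eb1 from the plus strand of chr17:34305767-34305866 and H2-DMb1 from the plus strand of chr17:34153091-34153190.
H2-Aa: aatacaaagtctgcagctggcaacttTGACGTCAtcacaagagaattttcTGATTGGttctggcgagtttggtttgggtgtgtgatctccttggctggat
H2-Eb1: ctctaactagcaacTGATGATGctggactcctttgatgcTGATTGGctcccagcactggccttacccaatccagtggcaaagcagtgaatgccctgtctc
H2-DMb1: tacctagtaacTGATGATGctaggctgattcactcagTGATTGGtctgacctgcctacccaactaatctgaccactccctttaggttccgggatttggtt
Counted from RefSeq's start, which for H2-DMb1 lies inside the span that the tables give, TGATTGG began at base -50 in H2-Aa, -61 in H2-Eb1 and -63 in H2-DMb1. TGATGATG began at base -86 in H2-Eb1 and -89 in H2-DMb1, and TGACGTCA at base -74 in H2-Aa. Searched on both strands of the 250 bases before the start, and with no overlap between matches here, TGATTGG was found in 7.23% of 32851 promoters, TGATGATG in 1.24% and TGACGTCA in 1.55%. The rarely read H2-Eb1 and the widely read H2-DMb1 thus carried the same 2 motifs, and a match is a description, not a bound site. Of the other genes, only H2-DMa was in that table, with 2 starts, and none of the 3 motifs was found in either window.

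Reads of class II genes were unevenly spread over the genes and over the cells. Of 987 cells, 552 (55.9%) had a read of H2-DMa and 37.9% had a read of H2-DMb1, against 64 (6.48%) of Cd74 and 34 (3.44%) of H2-Ab1. H2-Eb1 was read in 3 cells, H2-Aa in 1 cell and Ciita in 0. The editor was thus read in many microglia, while the chains that it acts on were read in few. Per kilobase of exon, the level in plasma high was 87.4 ± 9.35 CPM for H2-DMa, 56.5 ± 5.93 for H2-DMb1, 24.4 ± 7.87 for Cd74 and 5.48 ± 5.06 for H2-Ab1. In plasma high, neighbours in that order were farther apart than their SDs. This did not hold in plasma none for Cd74 (4.13 ± 4.14) and H2-Ab1 (3.31 ± 2.25), or for H2-DMa (69.7 ± 6.62) and H2-DMb1 (56.03 ± 15.5). In plasma low the SD of Cd74 (28.3 ± 38.7) reached both its neighbours, H2-DMb1 (57.3 ± 11.8) and H2-Ab1 (15.2 ± 21.1).

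Cd74 (ENSMUSG00000024610, plus strand of chromosome 18, 60803848 to 60812652) was found in more cells of plasma high than of the other groups. A read of Cd74 was present in 31 of 290 cells of plasma high (10.7%, exact Clopper-Pearson 95% interval 7.38% to 14.8%). It was present in 18 cells of plasma low (5.13%, 3.07% to 7.98%) and 15 of plasma none (4.34%, 2.45% to 7.05%). Reads carry no molecular identifiers, so such intervals cover counting error only. By TH number (1, 2 and 3), the share was 9.90%, 12.5% and 9.68% in plasma high, 4.24%, 5.13% and 6.03% in plasma low, and 3.45%, 2.65% and 6.84% in plasma none. Every value of plasma high was above every value of the other groups, while plasma low and plasma none overlapped. The share in plasma high was above that in plasma none by 6.38 ± 3.50 percentage points and above that in plasma low by 5.56 ± 1.87 points. Between plasma low and plasma none it differed by 0.820 ± 1.64 points, within its SD. At equal depth the 3 differences were 5.70 ± 2.99, 4.88 ± 1.36 and 0.820 ± 1.64 points.

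The level of Cd74 in the sums followed the same order only in part, and few cells held most of its reads. Plasma high had 55.9, 30.8 and 35.98 CPM in TH 1, 2 and 3, plasma low 14.7, 5.603 and 122.5 CPM, and plasma none 3.37, 2.48 and 14.9 CPM. Plasma high lay above plasma none without overlap, while plasma low spanned both because of its value in TH 3. The means were 40.9 ± 13.2, 47.6 ± 65.004 and 6.93 ± 6.95 CPM. Over pooled reads, plasma none had 6.996 CPM (95% exact Poisson interval 6.43 to 7.60) and plasma high 39.5 (38.3 to 40.7). The high/none log2 ratio, that is the log2 of CPM + 1 in plasma high minus that in plasma none within each TH number, was 3.70, 3.195 and 1.21, a mean of 2.70 ± 1.31. The low/none log2 ratio was 1.91 ± 1.015 and the high/low log2 ratio 0.80 ± 2.21, with -1.74 in TH 3.

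Among the cells that held a read, the level of Cd74 was near in the groups, with a median of 118.5 CPM in plasma high, 135.3 in plasma low and 105.2 in plasma none. The highest cell had 328.03 CPM in plasma none, 1363 in plasma high and 4241 in plasma low. A single cell held 77.7% of the Cd74 reads of plasma low and another held 40.5% of those of plasma high, against 16.3% in plasma none. Over all groups, 2 cells held at least 50% of the 8445 Cd74 reads. Without the top cell of each sum the level was 16.9 ± 8.63, 5.24 ± 2.87 and 5.13 ± 5.63 CPM in plasma high, low and none, and the high/none log2 ratio was 1.78.

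**Figure D1:**
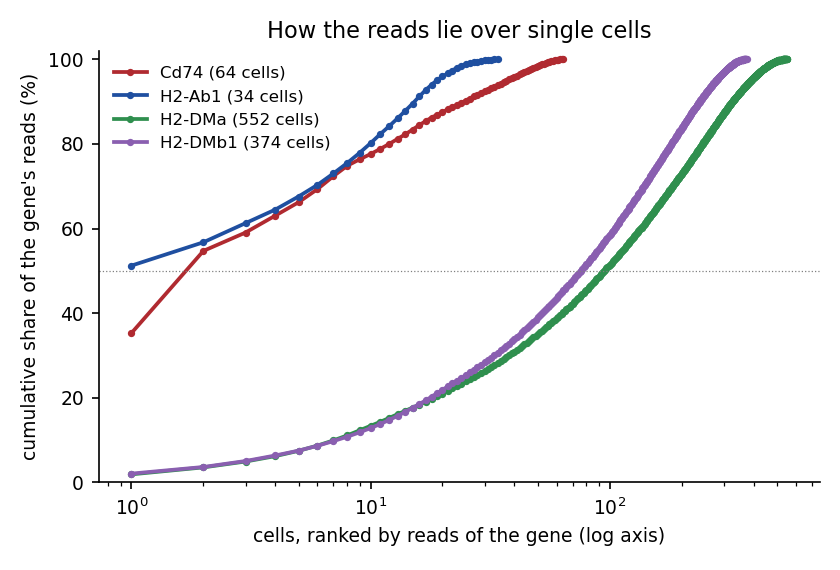
Cumulative share of each gene's reads (percent, linear axis) over cells ranked by their reads of that gene (log axis), for all 987 passing cells. The curve of Cd74 passes 50% with 2 cells, that of H2-Ab1 with 1 cell, and those of H2-DMa and H2-DMb1 with 95 and 76 cells.

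**Figure D2:**
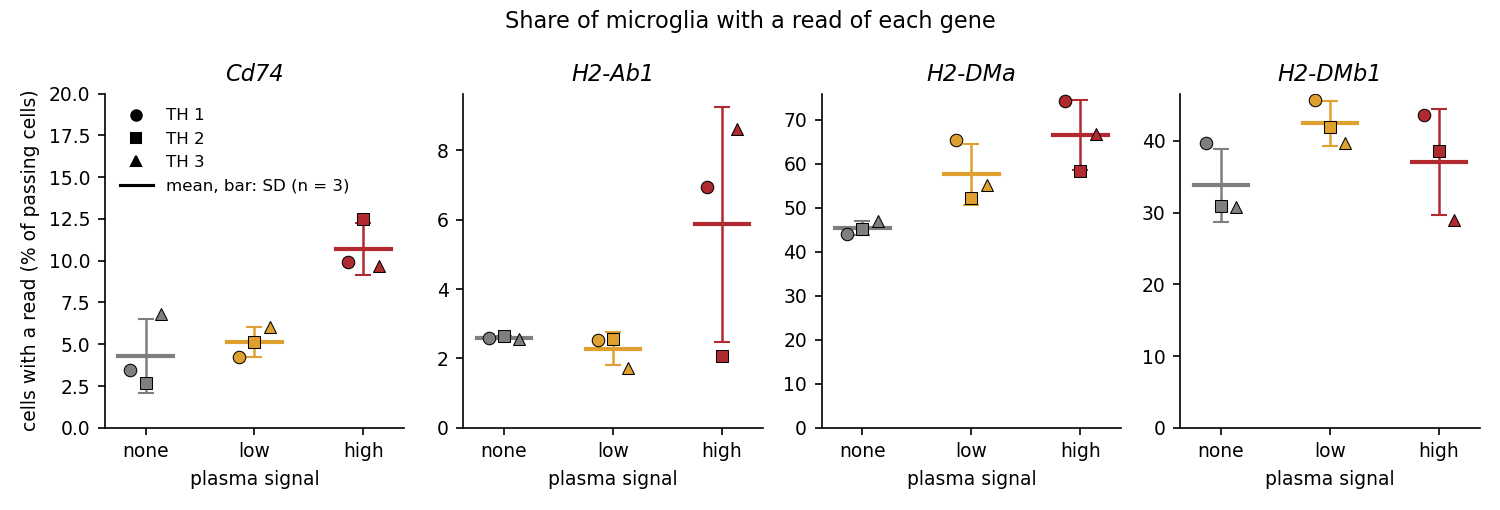
Percent of passing cells with a read of Cd74, H2-Ab1, H2-DMa and H2-DMb1 in each group, with 1 marker per TH number, the mean as a line and the SD as a bar (n = 3). Cd74 in plasma high (9.68% to 12.5%) lies above both other groups, and H2-DMa in plasma none (43.97% to 47.01%) lies below both.

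A gene was called by a rule of size. Its mean log2 ratio had to reach 1 or -1 with the same sign in 3 of 3 TH numbers, its mean level 20 CPM, and its share of cells 10% in 1 of the groups compared. In plasma high against plasma none, 3 of the 7 genes passed the filters on level and share (Cd74, H2-DMa and H2-DMb1) and 1, Cd74, was called higher, where 3.09% of all 5534 genes tested were called higher. Cd74 passed both filters only through plasma high, where its share, 10.7%, was just past 10% and its mean level was 40.9 CPM. In plasma none these were 4.34% and 6.93 CPM, so the call restates these values and adds no support to them. Without the top cell of each sum its mean level was under 20 CPM, and 0 of the 7 were called. In plasma low against plasma none only H2-DMa and H2-DMb1 passed the filters, and they were not called higher (1.6% of all genes tested were). Cd74, with a share of 5.13% in plasma low, could not be called there, whatever its ratio. In plasma high against plasma low Cd74, H2-DMa and H2-DMb1 passed, and 0 of the 7 were called higher (1.75% of all genes tested were). Cd74 was called in plasma high against plasma low when the cell in well P15 of TH 3, or all of TH 3, was left out. The comparisons share groups, so their counts are not independent of each other.

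Shares of cells were compared in the same way, for genes found in at least 1% of cells. In plasma high against plasma none, Cd74 and H2-DMa were the members higher in 3 of 3 TH numbers, as were 29.2% of 12502 genes. In plasma low against plasma none H2-DMa and H2-DMb1 were, with 29.4% of all genes, and in plasma high against plasma low Cd74 and H2-DMa were, with 12.8%. Shares without overlap between TH values were found for Cd74 and H2-DMa in plasma high against plasma none (15.2% of all genes), for H2-DMa in plasma low against plasma none (12.4%) and for Cd74 in plasma high against plasma low (4.24%). On the CPM scale, the values of Cd74 and H2-DMa in plasma high all lay above those in plasma none, which held for 8.51% of the genes tested. For Cd74 this ended without the top cell of each sum (6.97 CPM in plasma high, TH 1, and 11.6 in plasma none, TH 3). For H2-DMa it ended in cells without a read of Brd2, a gene that overlaps it (222.1 CPM in plasma high and 288.6 in plasma none, both TH 2). Over all 12502 genes the median difference of shares between plasma high and plasma none was 1.27 percentage points, and 0.871 at equal depth.

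H2-Ab1, the beta chain of I-A, was found in 17 cells of plasma high (5.86%, 3.45% to 9.22%), 8 of plasma low (2.28%, 0.989% to 4.44%) and 9 of plasma none (2.60%, 1.196% to 4.88%). The share was 6.93%, 2.08% and 8.60% in plasma high by TH number, against 2.59%, 2.65% and 2.56% in plasma none and 2.54%, 2.56% and 1.72% in plasma low. TH 2 of plasma high was the lowest of its group and lay below plasma none, so the groups overlapped. The high minus none difference was 3.27 ± 3.43 points, within its SD, and 2.94 ± 3.32 points at equal depth.

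The level of H2-Ab1 in the sums was 9.78, 3.78 and 28.7 CPM in plasma high, 2.64, 12.9 and 101.3 CPM in plasma low, and 12.5, 11.1 and 1.89 CPM in plasma none. The high value of 101.3 CPM was that of plasma low in TH 3, where 1 cell held most reads, and the groups overlapped in every pairing. The high/none log2 ratio was 0.57 ± 2.48 and turned to -0.83 without TH 3. The low/none log2 ratio was 1.15 ± 3.62 and turned to -0.76 without the top cell of each sum. Both were within their SD.

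H2-Aa, the alpha chain that pairs with H2-Ab1, had 670 reads in 1 cell of plasma low and none in any other passing cell. A count of 0, taken as a limit of 3 cells of the group, allows a share of up to 1.03% of cells in plasma high and 0.867% in plasma none (upper ends of the exact 95% intervals 1.26% and 1.06%). H2-Eb1, the beta chain of I-E, had 37 reads in 1 cell of plasma low (TH 3) and 25 and 16 reads in 2 cells of plasma none (both TH 1). It had no reads in plasma high, and none of these 3 cells had a read of Cd74. Ciita had no reads in any of the 987 cells, which by the same limit allows a share of up to 0.304% (exact upper end 0.373%). All these limits are for cells with a read, and a cell with no read may still hold the transcript.

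H2-DMa, the alpha chain of the editor, was read in more cells of plasma high and plasma low than of plasma none. The share was 66.6% in plasma high (60.8% to 71.96%), 57.5% in plasma low (52.2% to 62.8%) and 45.4% in plasma none (40.04% to 50.8%). By TH number it was 74.3%, 58.3% and 66.7% in plasma high, 65.3%, 52.1% and 55.2% in plasma low, and 43.97%, 45.1% and 47.01% in plasma none. Plasma none lay below all values of the other groups, and within each TH number plasma high lay above plasma low, though the ranges of those 2 groups overlapped. The difference to plasma none was 21.1 ± 8.63 points for plasma high and 12.2 ± 7.93 points for plasma low, and plasma high exceeded plasma low by 8.90 ± 2.65 points. At equal depth these were 20.8 ± 8.25, 11.9 ± 8.17 and 8.87 ± 2.20 points.

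The level of H2-DMa moved less than its share. Plasma high had 335.2, 270.99 and 298.1 CPM in the sums, plasma low 308.3, 294.2 and 209.4, and plasma none 252.4, 254.9 and 214.2, so plasma low overlapped both other groups. The high/none log2 ratio was 0.32 ± 0.21, a 1.25-fold difference, and the low/none log2 ratio 0.15 ± 0.17. In the cells with a read, the median level was 393 ± 21.9 CPM in plasma high, 378.9 ± 34.1 in plasma low and 402 ± 19.1 in plasma none, all within the largest of these SDs of each other. As the mean over cells of CPM per cell, the high/none log2 ratio was 0.53.

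H2-DMa shares 360 exonic bases with Brd2, a widely expressed chromatin reader on the opposite strand, and whether the counting used strand is not stated. Brd2 was read in 26.8% of cells and in 29.2% of the cells with H2-DMa. Its level was 127.5 ± 50.4 CPM in plasma high, 131.4 ± 26.6 in plasma low and 134.1 ± 6.95 in plasma none, with overlapping values. In the cells without a read of Brd2, a restriction chosen after seeing the data, the share with H2-DMa was 61.9% in plasma high, 57.3% in plasma low and 45.1% in plasma none, and the high/none log2 ratio was 0.08.

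H2-DMb1, a beta chain of the editor, was read in 37.2% of cells in plasma high (31.7% to 43.1%), 42.5% in plasma low (37.2% to 47.8%) and 33.8% in plasma none (28.8% to 39.1%). By TH number the share was 43.6%, 38.5% and 29.03% in plasma high, 45.8%, 41.9% and 39.7% in plasma low, and 39.7%, 30.97% and 30.8% in plasma none. TH 1 was the highest in each group, and the lowest value of plasma low equalled the highest of plasma none. The low minus none difference was 8.63 ± 2.41 points, and the high minus none difference 3.25 ± 4.69 points, within its SD. At equal depth these were 9.22 ± 1.51 and 4.29 ± 4.49 points. The level differed by less than its SD, with 94.9 ± 9.97, 96.4 ± 19.8 and 94.2 ± 26.1 CPM in plasma high, low and none and a high/none log2 ratio of 0.04 ± 0.37. H2-DMb2, its near-identical neighbour, was read in 67 cells, 36 of them with H2-DMb1, and reads of the 2 copies may have been split between them.

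**Figure D3:**
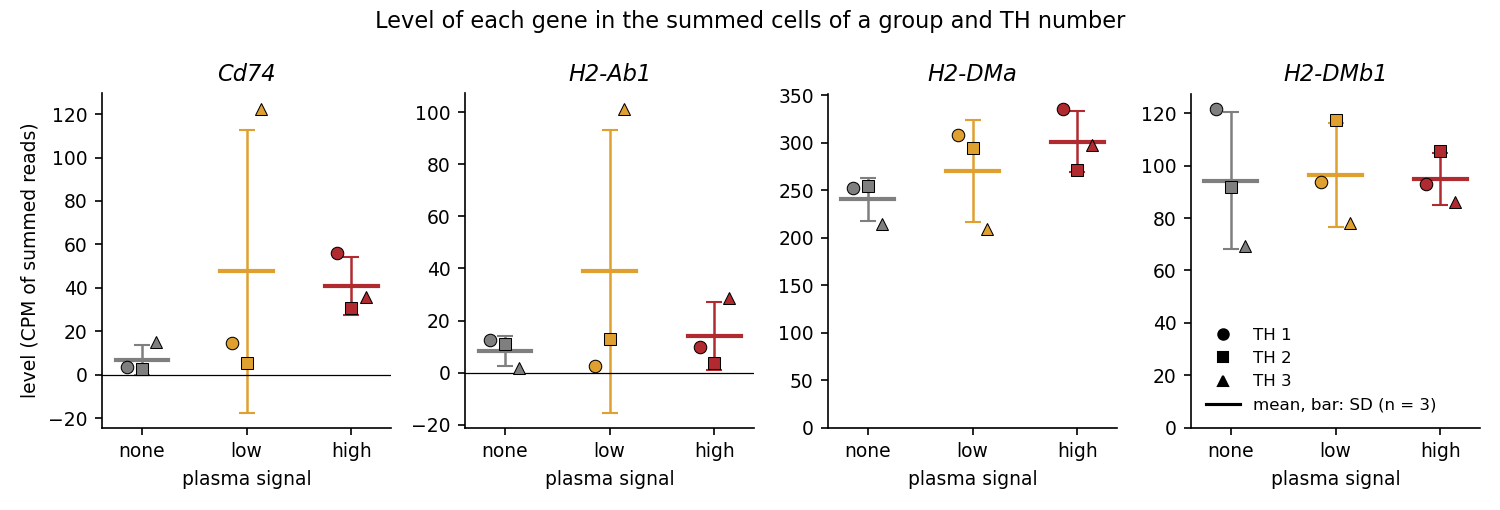
Level in CPM of the summed reads of each group and TH number for Cd74, H2-Ab1, H2-DMa and H2-DMb1, with 1 marker per TH number, the mean as a line and the SD as a bar (n = 3). The high markers of plasma low in TH 3 are 122.5 CPM for Cd74 and 101.3 CPM for H2-Ab1, and the means of H2-DMb1 lie between 94.2 and 96.4 CPM.

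Within single cells, H2-Ab1 was found in a larger share of the cells with Cd74 than of the cells without it. Of the 64 cells with Cd74, 9 had H2-Ab1 (14.1%, 6.64% to 25.02%), against 25 of 923 cells without Cd74 (2.71%, 1.76% to 3.97%). In plasma high these were 8 of 31 cells (25.8%, 11.9% to 44.6%) against 3.47% (1.60% to 6.49%), the other was the 1 of 18 cells in plasma low, and 0 of the 15 Cd74 cells of plasma none had H2-Ab1 (interval up to 21.8%). H2-DMa was found in 41 of the 64 Cd74 cells (64.1%, 51.1% to 75.7%) and in 55.4% of the others (52.1% to 58.6%). The groups did not share this direction. The shares were 61.3% against 67.2% in plasma high, 83.3% (15 of 18 cells) against 56.2% in plasma low, and 46.7% against 45.3% in plasma none. H2-DMb1 was found in 35.9% of the Cd74 cells (24.3% to 48.9%) and 38.03% of the others (34.9% to 41.2%). By group this was 35.5% against 37.5% in plasma high, 50% against 42.04% in plasma low and 20% against 34.4% in plasma none. Of the cells with H2-DMa, 38.04% had the other editor chain H2-DMb1 (33.98% to 42.2%), and of the cells without it 37.7% (33.1% to 42.4%). Cells with Cd74 were deeper, with a median of 272482 reads against 231807. Cells of a group share their source, so these are counts and no test. With every cell at equal depth and the groups pooled, the share among Cd74 cells minus that among the others was 10.2 points for H2-Ab1 (11.35 as counted). It was 7.45 points for H2-DMa (8.70 as counted) and 0.448 points for H2-DMb1 (-2.09 as counted).

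Cells with reads of 3 or more of the 7 genes numbered 16 in plasma high (5.52%), 10 in plasma low (2.85%) and 1 in plasma none (0.289%). By TH number there were 7, 4 and 5 such cells in plasma high, 2, 3 and 5 in plasma low, and 1, 0 and 0 in plasma none. The counts of plasma none were below those of both other groups on each TH number. Counted as exact combinations, Cd74 with both editor chains and no other member made up 16 of the 27 cells, of which 9 were in plasma low. Cd74 with H2-Ab1 and H2-DMa and no other member made up 5, all in plasma high. These 3 genes were also read together with H2-Aa in 1 cell of plasma low, and with H2-DMb1 in 1 cell of plasma high. No gene of the 7 had a read in 17.9% of the cells of plasma high, 22.8% of plasma low and 31.5% of plasma none. At equal depth, a check added after seeing the data, 5.17%, 2.85% and 0.289% of cells had 3 or more of the genes and 19.3%, 23.6% and 32.9% had none.

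A single cell stood apart from all others. It was a cell of plasma low in TH 3 (well P15) with 702591 reads and 2031 genes, and it held 2980 reads of Cd74, 2645 of H2-Ab1 and all 670 of H2-Aa. These are 4241, 3765 and 954 CPM, each the highest of any passing cell. It had 2 reads of H2-DMa and none of H2-DMb1, H2-Eb1 or Ciita. At least its depth was reached by 42 passing cells, itself included. All 8 microglia markers were read in it, and they summed to 37453 CPM, beside a median of 49677 in the cells without Cd74. Tmem119 (7546 CPM) and Cx3cr1 (8188) were above their means in the other cells (4174 and 7228). P2ry12 (3237 CPM), Csf1r (3625) and Fcrls (293.2) were below theirs (9201, 6260 and 2563). No gene of the lists for border-associated macrophages, monocytes, dendritic cells, B cells, T and NK cells or neutrophils had a read.

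That cell also had reads of some genes that interferon gamma is known to induce, and none of others. Gbp2, a guanylate-binding protein, had 411 CPM against a mean of 5.26 in the other cells, and 0.811% of them were at or above it. Igtp, an immunity-related GTPase, had 428 CPM (mean of the others 80.3), and Irgm1, of the same family, 203.5 CPM (72.7). For these, 9.33% and 9.23% of the other cells were at or above it. Among co-stimulation genes, Icosl, a ligand for T cells, had 908 CPM against 30.3, while Cd86 had no read (mean of the others 445.8). Irf1, a transcription factor of that response, was at 65.5 CPM, below its mean of 85.2 in the other cells. These are the values of 1 cell and have no error.

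Without this cell, a choice made after seeing the data, Cd74 in plasma low was 9.67 ± 4.63 CPM and H2-Ab1 5.21 ± 6.76 CPM. The high/low log2 ratio was then 2.02 for Cd74 and 1.59 for H2-Ab1, where with it these were 0.80 and -0.58. The low/none log2 ratio was 0.68 for Cd74 and -1.02 for H2-Ab1.

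**Figure D4:**
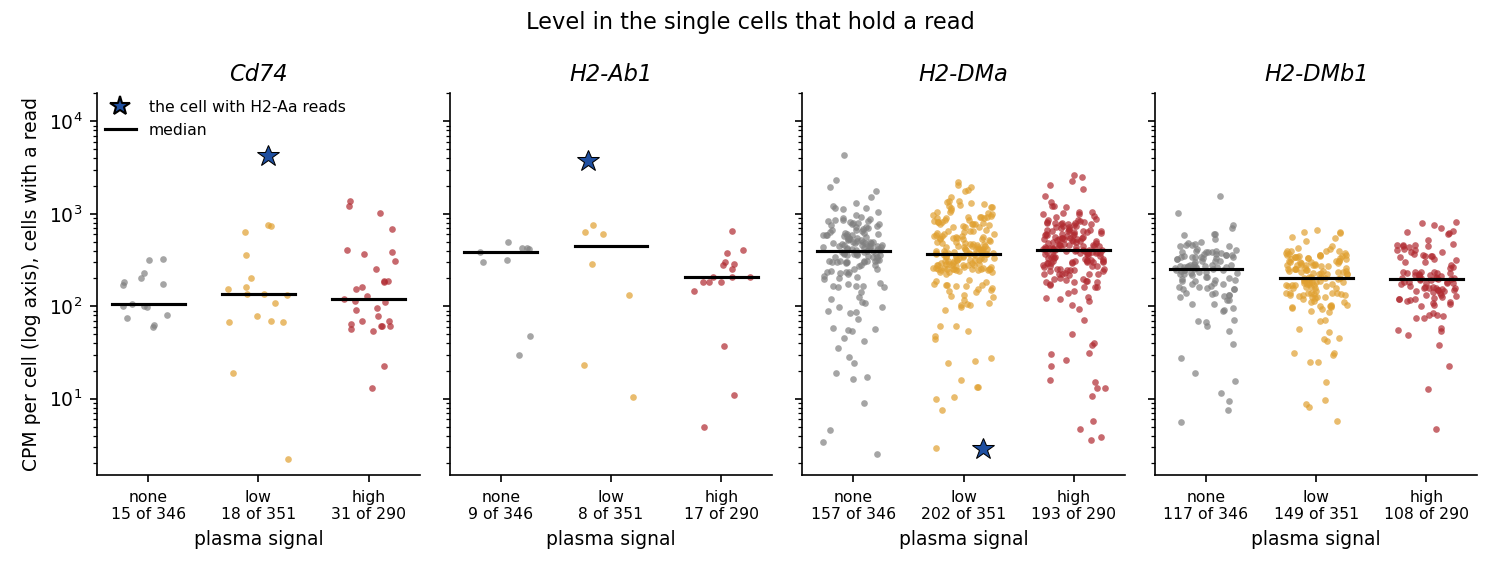
CPM per cell (log axis) in the cells with a read of Cd74, H2-Ab1, H2-DMa or H2-DMb1, by group, with the median as a line and the number of such cells of all passing cells under each group. The star, the cell that holds all H2-Aa reads, is the highest for Cd74 (4241 CPM) and H2-Ab1 (3765 CPM) and among the lowest for H2-DMa.

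The cells that carried Cd74 reads had the markers of microglia. Of the 64 cells with Cd74, 64 had Cx3cr1 and Csf1r, 63 had Tmem119 and 61 had P2ry12, and in the 27 cells with 3 or more of the genes Tmem119, Cx3cr1 and Csf1r were read in all 27. The 8 markers summed to a median of 43515 CPM in the Cd74 cells and 49677 in the other 923. At least 3 markers of another cell type, each at 10 CPM or more, were found in 0 of the 64. Of the border-associated macrophage list, 5 of 7 genes had no read in any cell (Pf4, Cd163, Lyve1, F13a1 and Ms4a7), and its sums ran from 0.217 to 1.34 CPM in plasma none, 2.64 to 22.2 in plasma low and 0 to 4.50 in plasma high. Of the monocyte list, 4 of 6 had none (Ly6c2, Plac8, Chil3 and Fn1), with sums up to 7.57 CPM in plasma high, 8.42 in plasma low and 7.25 in plasma none. Of the B cell list, 4 of 5 had none (Cd79a, Ms4a1 and Pax5 among them), and the T and NK cell and neutrophil lists had no reads at all. Of the dendritic cell list, 2 of 8 had none (Cd209a and Ccr7), its sums ran from 1.96 to 40.2 CPM in plasma high, 15.4 to 58.1 in plasma low and 14.8 to 31.6 in plasma none, and its median was 0 CPM in the Cd74 cells and in the others. Its mean was 73.9 CPM in the Cd74 cells, where the highest cell had 3716 CPM, and 15.1 CPM in the others, and the part of these reads in the Cd74 values was not tested. Of 42 genes of other blood and border cells, 26 were read in no cell and the most frequent, Zbtb46 and Itgae, in 2.43% of cells each, below the 6.48% of Cd74 and the 3.44% of H2-Ab1.

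Other genes of class II presentation were followed in 6 lists of 53 genes, of which 52 were in the tables and 30 passed the filters in plasma high against plasma none. By the rule of size, 0 of the 30 were higher and 1 was lower, where 2.06% of all genes were lower. The median log2 ratio was 0.22 over the 10 genes of peptide loading, 0.13 over 2 other class II chains, 0.11 over 3 co-stimulation genes, 0.0025 over 7 genes of the interferon gamma axis, -0.0021 over 3 of turnover and partners, and -0.13 over 5 of class II transcription, against 0.05 over all 5534 genes.

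In peptide loading, Psap, the precursor of the saposins that open lipids to lysosomal enzymes, had the highest high/none log2 ratio, 0.68 ± 0.17 (737 ± 99.1 CPM in plasma none and 1182 ± 179.6 in plasma high). Ctsl, a cathepsin that can trim Cd74, had the lowest, -0.05 ± 0.21. Ctss, the cathepsin that completes that trimming in macrophages, was read in all cells and had 9239 ± 366.6 CPM in plasma high, 7865 ± 1165 in plasma low and 6827 ± 478 in plasma none, a log2 ratio of 0.44 ± 0.05. It was named after its values were seen.

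Among the other chains, H2-DMb2 was highest with a log2 ratio of 0.68 ± 0.72 and H2-Oa, a chain of the DM inhibitor H2-O, lowest with 0.07 ± 0.63. H2-Ob, the other H2-O chain, met the rule in plasma high against plasma low, with 153.6 ± 14.5 against 71.7 ± 20.0 CPM and a log2 ratio of 1.12 ± 0.37. It had 156.8 ± 86.996 CPM in plasma none, with a low/none log2 ratio of -0.94 ± 0.71. H2-Eb2 had no reads.

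Among transcription factors, Rfxap, a subunit of the RFX complex, had 0.48 ± 0.34 and Creb1, which binds the X2 box, -0.80 ± 0.48. Of turnover and partners, Marchf8, a ubiquitin ligase of class II, had 0.63 ± 1.54 and Marchf1, the related ligase of antigen-presenting cells, -0.14 ± 0.35. Of co-stimulation, Icosl had 0.32 ± 1.33 and Cd80, a ligand of CD28, -0.78 ± 1.57. Of these 6 genes, only Creb1 and Rfxap had 1 sign in 3 of 3 TH numbers, and none met the rule.

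The interferon gamma axis had no common direction. Irf1, a transcription factor that drives Ciita, had a log2 ratio of 0.75 ± 0.57 with 61.4 ± 23.7 CPM in plasma none and 102.3 ± 37.4 in plasma high. Igtp met the rule as lower in plasma high, with 47.4 ± 15.8 CPM against 95.4 ± 9.88 in plasma none and 95.7 ± 11.4 in plasma low. Its log2 ratio was -1.05 ± 0.60 against plasma none and -1.05 ± 0.36 against plasma low, where 1.52% of all genes were lower. Ifng itself had no reads, and its receptor chain Ifngr1 had 1612 ± 165.4 and 1537 ± 415 CPM in plasma none and high.

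**Figure D5:**
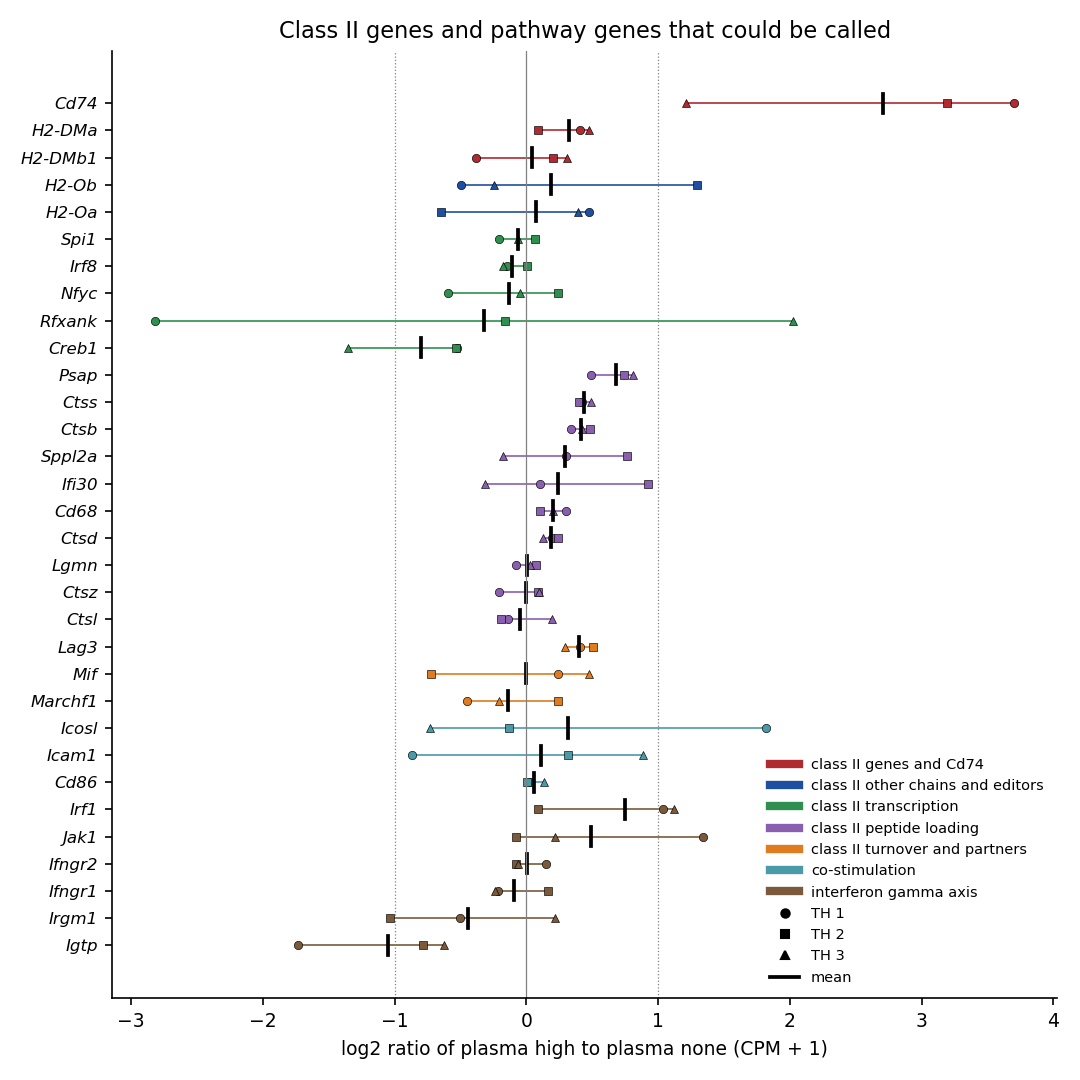
High/none log2 ratio (CPM + 1) for the class II genes and the list genes reported here that passed the filters on level and share, with 1 marker per TH number, the mean as a black bar and dotted lines at -1 and 1. Cd74 (mean 2.70) is the only gene past 1 and Igtp (mean -1.05) the only gene past -1.

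The genes most like Cd74 across cells, by the mean over TH numbers of Pearson's r of log2(CPM + 1) over 987 cells among 9403 genes, were Axl (0.249), Lilrb4a (0.238), Lpl (0.225), Apoe (0.218) and Fxyd5 (0.212). Cells within a library set share depth, and such weak values in sparse counts are a description only. Apoe was read in 39.1% of Cd74 cells and 14.7% of the others, Lpl in 28.1% and 7.80%, and Axl, a receptor for dead cells, in 20.3% and 3.25%. These values pool the groups, which differed in level. In plasma none, low and high, Apoe had 99.5, 148.6 and 1196 CPM, Lpl 24.1, 145.8 and 90.3, and Axl 6.88, 9.64 and 39.3. The part of the group differences in this likeness was not tested. For Lilrb4a and Lpl, r was near 0 in TH 3 (0.022 and -0.0035). For H2-Ab1 the nearest were Edem3 (0.173), Cd74 (0.154), Yy2 (0.141), Eya3 (0.139) and Dis3 (0.137).

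The values of the editor chains were lower still. For H2-DMa the nearest were Ctsh (0.139), B2m (0.133), Ppt1 (0.132), Ctss (0.130) and Rpl13 (0.124), and for H2-DMb1 they were Lmo4 (0.137), Map4k5 (0.129), Jam2 (0.127), Itpr3 (0.121) and Lpcat2 (0.120). H2-DMa and H2-DMb1 had a mean r of -0.0085 with each other, and Cd74 had 0.0092 with H2-DMa and -0.015 with H2-DMb1.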

How the data were processed

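Single microglia were measured by Smart-seq2. The deposited tables hold counts, 1 per gene and cell, whole numbers in all but 1 column, and per the file headers each TH number has its own table. In that column 2 deposited values were not whole, so its unit was taken to be expected counts, and they were rounded. Per the submitters' processing notes, bcl2fastq, Trim Galore, STAR 2.5.3a and Seurat were used with mm10, with no role or order stated. Which program counted the reads, and whether it used strand, is not given in the sources used here. Per the file headers, TH 2 and TH 3 came from alignments reduced to top hits, which those of TH 1 do not state.

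Of 1111 labelled cells, 1045 were matched to a column by well and TH number, and 66 were not analysed here. Of the matched cells, 58 fell below the filter. Nothing in the labels says that the TH numbers are separate animals, so an SD over them may be technical. Reads of passing cells were summed per group and TH number and scaled to CPM with TMM factors (edgeR 4.0.16, R 4.3.3, used for scaling only). Log2 ratios used a pseudocount of 1 CPM, which understates the change of low genes. No doublet caller was run, and nothing was clustered. The scripts were tested on simulated data. DESeq2 1.42.0 gave alternative size factors.

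The 7 genes, the lists and the rules were chosen with earlier results of these data known. The rule for names took all 7 genes, the highest and the lowest gene of each list by its ratio of plasma high to plasma none among those with at least 20 CPM, any list gene that met the size rule, and the 5 genes most like each of the 4 members read in at least 20 cells. Likeness used genes read in at least 2% of cells. Alternatives were library size, pseudocounts of 0.1 and 5 CPM, other cell filters, read thresholds, and cells or TH numbers left out. The restriction to cells without Brd2, leaving out the cell in well P15, the motifs and the minimum share of 1% were chosen after seeing the data. A few genes of the lists are counted in them but not reported here by name.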

Additional observations from a re-analysis of the deposited data

Results flagged for a closer look

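The 58 cells below the depth filter enter no comparison, and reads of 2 of the 7 genes stood in them above the level of the passing plasma none cells. Cd74 had 124.4 CPM over their summed reads, against 6.996 CPM in passing plasma none cells, with reads in 4 cells (2 of plasma none, 2 of plasma high), nearly all of them in 1 cell. H2-DMa had 476.3 CPM against 242.7 CPM, with 670 reads in 18 cells (5 in plasma high, 5 in plasma low, 8 in plasma none). These cells held 1406598 reads in genes in all.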

How the results depend on the processing

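Each group was 1 sample of cells, so no setting gives a test. The number of cells limits the rare genes: a count of 0 allows a read in about 1% of a group's cells. That limit does not cover what read depth may miss within a cell. Of the settings tried on the main results (plasma high against plasma none, and co-detection), 4 moved the value by more than its SD over TH numbers, or a count by over 1.5 times, and all others by less. The log2 ratio of H2-DMa was 0.082 in cells without a Brd2 read and 0.53 as a mean over cells. Without the top cell of each sum 0 of the 7 genes met the size rule, because the filter on level then removed Cd74. With at least 5 reads asked and the groups pooled, H2-DMa was more frequent in Cd74 cells by 2.498 points in place of 8.70. Apart from the count of 0, the cause of these shifts was not tested.

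With 1 TH number left out, the high/none log2 ratio ranged from 2.20 to 3.45 for Cd74, -0.83 to 1.52 for H2-Ab1, 0.25 to 0.44 for H2-DMa and -0.089 to 0.25 for H2-DMb1. The difference of shares ranged from 4.65 to 8.15 points for Cd74, 1.89 to 5.19 for H2-Ab1, 16.4 to 24.98 for H2-DMa and 1.09 to 5.74 for H2-DMb1. With no replicate block, that is with reads pooled over TH numbers, the ratios were 2.385 for Cd74, 0.42 for H2-Ab1, 0.31 for H2-DMa and 0.073 for H2-DMb1. Sums with the same TH number deviated together weakly (r of 0.031 to 0.090 across 6951 genes), and 18 of 18 comparisons between groups were highest for the own number, a hint of pairing from the data only.

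Counts over all genes depended on the settings. Relative to the main count of higher genes, plasma high against plasma none gave 3.93 times as many with no filter on level or share, 1.63 times without TH 1 and 2.13 times without TH 3. Plasma low against plasma none gave 6.52 times as many with no filter, and 2.56, 2.02 and 2.41 times without TH 1, 2 and 3. Plasma high against plasma low gave 5.14 times as many with no filter, 1.89, 1.92 and 2.34 times without TH 1, 2 and 3, and 0.61 times without the top cell of each sum. With no filter, Cd74 was also called in plasma low against plasma none. The setting with only cells of at least 100000 reads and 1000 genes kept the sign of the 4 high/none log2 ratios.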

Other observations

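On TH 3, 24 other passing cells shared the plate row or column of the cell with all H2-Aa reads. Of these, 1 had a read of Cd74 and 0 of H2-Ab1 or H2-Aa, against 22, 12 and 0 passing cells of TH 3 in other rows and columns (7.31% and 3.99% for Cd74 and H2-Ab1). Dexi, which overlaps Ciita on the opposite strand, was read in 48 cells with 21.9 ± 18.7 CPM in plasma high, 12.2 ± 11.03 in plasma low and 7.59 ± 3.88 in plasma none, while Ciita had no reads.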
